A study of Mus musculus with 18 samples.

Results

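The plasma cell programme was followed through 8 genes in mouse splenic B cells: Sdc1, which encodes the plasma cell surface proteoglycan syndecan 1, the transcription factor genes Prdm1, Irf4 and Xbp1, the coactivator gene Pou2af1, and Jchain, Mzb1 and Ell2, which serve antibody assembly and secretion. They were taken as a named list, and each of the 8 matched a single entry among the 35275 genes of the deposited table. All 8 passed the filter, a mean of 1 FPKM or more over the 18 libraries (FPKM being fragments per kilobase of gene and per M fragments), which left 11646 genes to test. The cells were pan B cells from spleens of C57BL/6 mice. They received 1000 ng/ml of mBaffR-mFc, a reagent that covers the part of BAFF through which it binds its receptor BR3, or the same dose of a control antibody. After 1 h, BAFF 60mer (an assembly of 60 subunits) or BAFF 3mer (3 subunits) was added at 100 ng/ml, or no BAFF, for a further 4 h. The 6 groups of 3 libraries are called BRFc_60mer, BRFc_3mer and BRFc after mBaffR-mFc, and Ab_60mer, Ab_3mer and Ab after control antibody. All groups share the pretreatment step and the culture time, so none of them is fresh tissue, and no group without a pretreatment is among them.

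A B cell that becomes an antibody-secreting plasma cell raises IRF4 and BLIMP1, the product of Prdm1, and BLIMP1 turns off the B cell factors that hold the earlier state. XBP1 then enlarges the endoplasmic reticulum, and the protein it makes room for is assembled with the help of MZB1 and the joining chain, while ELL2 favours the secreted form of the heavy chain message. OBF1, the product of Pou2af1, works with the octamer-binding factors OCT1 and OCT2 and is already abundant in B cells. BAFF is a survival factor of mature B cells that signals mainly through BR3 to NF-kB, and its oligomeric form also engages the receptor TACI.

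The median library held 18.4 M fragments, as recovered from the steps between low FPKM values, and the extremes were 12.2 and 25.4 M. The member with the least coverage was Prdm1, with an estimated 424 to 1030 fragments per library, and Sdc1 had 876 to 3241. The B cell label fits its markers, with Ms4a1, the gene of CD20, at 168 to 188 FPKM, and Cd79a and Cd79b, the signalling chains of the B cell receptor, at 772 to 936 FPKM and 722 to 832 FPKM. Of the 8 plasma cell markers, 3 were low in every library, with Tnfrsf17, the gene of the BCMA receptor, at 0 to 0.275 FPKM, Fkbp11 at 0.437 to 1.34 FPKM and Derl3 at 0.857 to 2.08 FPKM. The others were higher: Slamf7 was at 51.5 to 62.7 FPKM and Tent5c at 8.15 to 11.7 FPKM, and Sdc1, Jchain and Prdm1 are members described with their values. Transcripts of connective tissue divided the libraries in another way than the groups do. The summed level of Col1a1, Col1a2, Col3a1, Sparc, Dcn and Bgn was 8.14 to 12.9 FPKM in 8 libraries, which are all of BRFc_60mer and Ab_60mer and replicates 1 and 2 of Ab_3mer, and 0 to 0.131 FPKM in the other 10. BAFF 60mer against no BAFF, and BRFc_60mer against BRFc_3mer, lie wholly across this division. Among the libraries that carry these transcripts, Ab_60mer can be set against the 2 carrying Ab_3mer libraries, and that value is given beside the results as the comparison among carrying libraries.

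The promoter windows of the members that moved are shown because the responses to BAFF are known to pass through NF-kB. They run from 250 bases before to 50 bases after the RefSeq start site (GRCm38.p6). Windows of 7 of the 8 members were read, and 1 member was left out. Sdc1 (ENSMUSG00000020592, chr12:8771323-8793715, plus strand, GRCm38) has the window chr12:8771146-8771445, and Pou2af1 (ENSMUSG00000032053, chr9:51213708-51240080, plus strand) has chr9:51213440-51213739, both on the plus strand. Capitals mark every match, on either strand, to a loose form of the NF-kB site (GGG, any 5 bases, then CC), and to TGACGTGG, the core bound by XBP1 and ATF6.
Sdc1: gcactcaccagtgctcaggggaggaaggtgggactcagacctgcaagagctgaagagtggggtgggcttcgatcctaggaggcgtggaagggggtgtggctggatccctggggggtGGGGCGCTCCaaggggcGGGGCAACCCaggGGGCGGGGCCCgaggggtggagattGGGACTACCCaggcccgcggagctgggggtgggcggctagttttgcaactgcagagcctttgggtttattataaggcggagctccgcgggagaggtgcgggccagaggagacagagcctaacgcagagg
Pou2af1: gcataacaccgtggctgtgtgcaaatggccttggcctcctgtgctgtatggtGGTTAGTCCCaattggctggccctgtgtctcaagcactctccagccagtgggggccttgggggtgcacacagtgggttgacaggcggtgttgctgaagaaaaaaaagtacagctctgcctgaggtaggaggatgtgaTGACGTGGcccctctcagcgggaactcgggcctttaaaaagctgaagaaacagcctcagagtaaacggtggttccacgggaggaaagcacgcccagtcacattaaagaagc
In the Sdc1 window the loose NF-kB motif could be placed at 5 positions, starting at -134, -117, -104, -103 and -79 from the start site, of which those at -104 and -103 overlap. At least that many placements occurred in 3.16% of 32851 mouse promoter windows of the same length, and at least 1 occurred in 50.8%. The Sdc1 window is 66.3% G and C, against a median of 52.7% over all windows, and the motif consists of G and C apart from its free bases. The Pou2af1 window had 1 placement of the loose NF-kB motif and TGACGTGG at -61, which 0.676% of all windows held. In windows of members that did not pass the test below, the loose NF-kB motif had 3 placements in Prdm1, 3 in Ell2, 2 in Irf4, 1 in Xbp1 and 0 in Jchain. None of the 7 members' windows held the octamer ATGCAAAT (1.74% of all windows), GAAA, any 2 bases and GAAA, an element bound by IRF factors (3.44%), or the E box CACGTG (7.15%). These matches describe letters in the windows and were not tested as binding sites.

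Sdc1 was lower and Pou2af1 higher with BAFF 60mer after either pretreatment, and no other member passed the test (limma, Benjamini-Hochberg adjusted p under 0.05 over all 11646 genes). In Ab_60mer against Ab, 1 member was higher and 1 lower of 8, where 5.04% of all tested genes were higher and 8.94% lower. The same 2 genes passed in Ab_60mer against Ab_3mer, where 1.80% of all genes were higher and 3.01% lower. They also passed in BRFc_60mer against BRFc, where 1.46% were higher and 3.37% lower, and in BRFc_60mer against BRFc_3mer, where 2.05% were higher and 3.11% lower. The median log2 difference of the 8 members was 0.02 in Ab_60mer against Ab and 0.00 in BRFc_60mer against BRFc, and the medians over all tested genes were -0.02 in both. A fall of 1 surface gene stood beside a rise of 1 coactivator gene, and 6 members did not pass. No label ties the libraries of a group to different mice or cultures, so every p-value here reflects spread among libraries that may be technical.

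**Figure D1:**
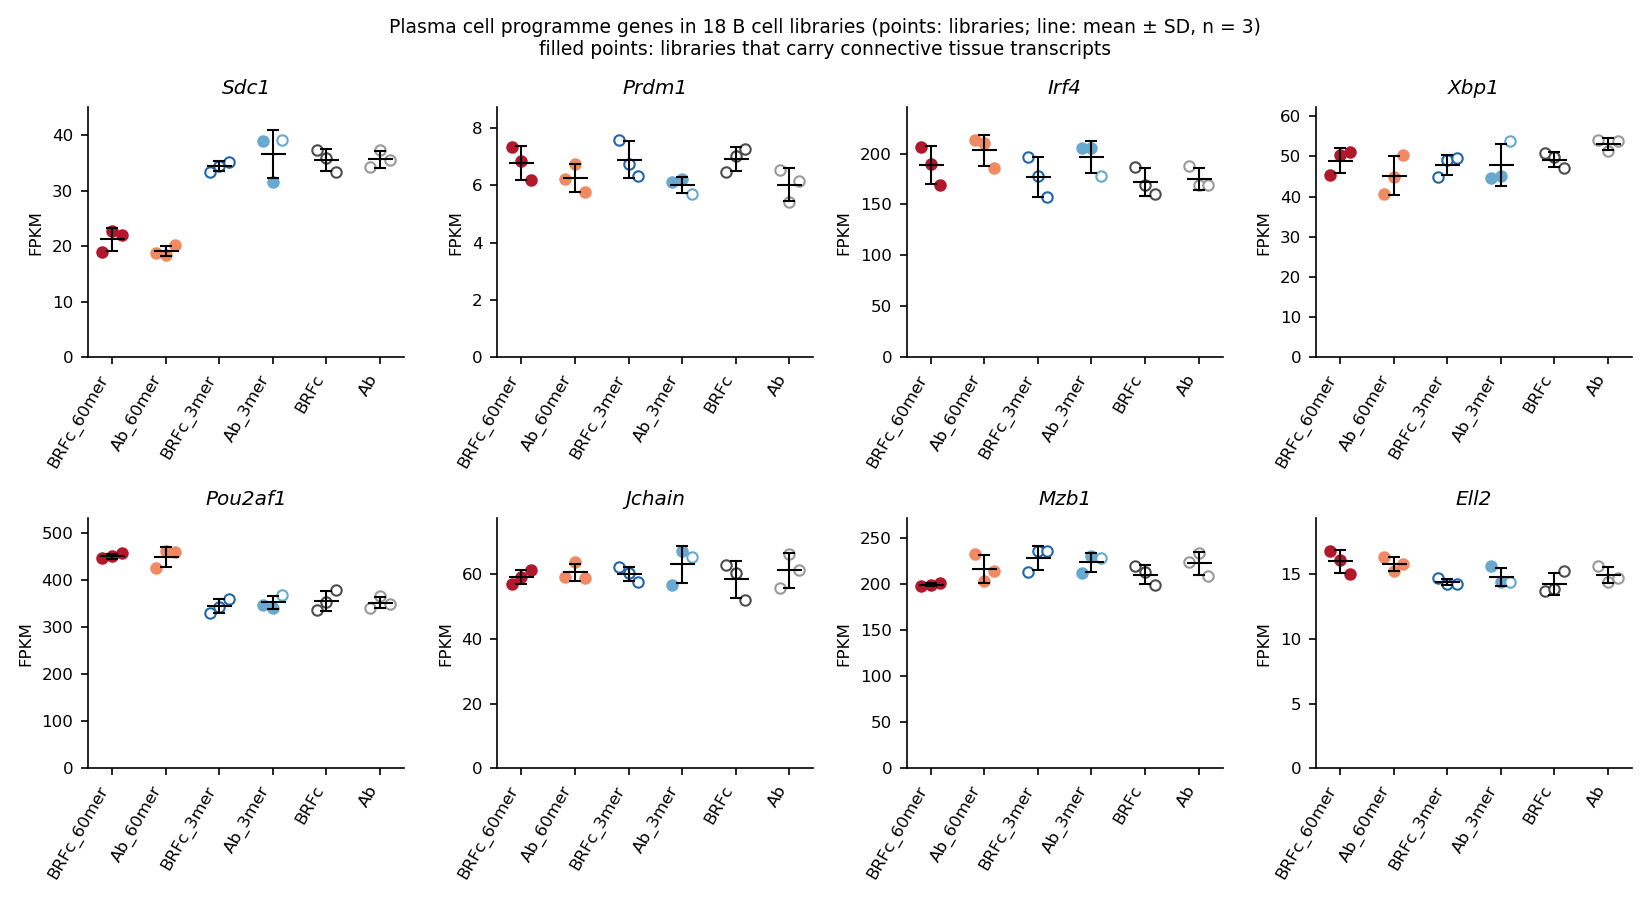
FPKM (vertical axes, from 0) of the 8 members in the 6 groups, each point a library, with the mean and SD of 3 libraries in black and filled points for libraries that carry connective tissue transcripts. Sdc1 lies between 18.4 and 22.9 FPKM in the 6 libraries with BAFF 60mer and between 31.6 and 39.2 FPKM in the other 12, and Pou2af1 lies above all others in the same 6 libraries.

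Sdc1 encodes a heparan sulfate proteoglycan that, as CD138, is the usual surface marker of plasma cells. It had 18.8, 18.4 and 20.2 FPKM in Ab_60mer, against 34.3, 37.4 and 35.5 FPKM in Ab. In BRFc_60mer it had 19.0, 22.9 and 22.0 FPKM, against 37.3, 36.0 and 33.4 FPKM in BRFc. With BAFF 3mer it had 33.4, 34.6 and 35.2 FPKM in BRFc_3mer and 39.0, 31.6 and 39.2 FPKM in Ab_3mer. All 6 libraries with BAFF 60mer lay below all 12 others, and the libraries with BAFF 3mer overlapped those without BAFF. In Ab_60mer the mean was 46.4% below that of Ab, a log2(FPKM + 1) difference of -0.87 ± 0.078 (SE, here and after every log2 difference; adjusted p = 8.64e-06), and in BRFc_60mer it was 40.1% below that of BRFc, a difference of -0.72 ± 0.078 (adjusted p = 6.47e-05). Against BAFF 3mer the log2 differences were -0.90 ± 0.078 in Ab_60mer (adjusted p = 7.91e-06) and -0.67 ± 0.078 in BRFc_60mer (adjusted p = 8.95e-05). By size, Sdc1 ranked 8 among the genes lower in Ab_60mer than in Ab and 18 among those lower in BRFc_60mer than in BRFc. In RNA from whole B cell preparations, fewer cells of a type and less RNA per cell cannot be told apart.

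All libraries with BAFF 60mer, in which Sdc1 was lower, carry the connective tissue transcripts, and so do 2 of the 3 Ab_3mer libraries. Among carrying libraries, where 2.11% of all genes passed, the difference was -0.84 ± 0.085 on the log2 scale for Ab_60mer against the 2 carrying Ab_3mer libraries (adjusted p = 8.96e-05). Within Ab_3mer the 2 carrying libraries had 39.0 and 31.6 FPKM of Sdc1, and the library without these transcripts had 39.2 FPKM. With the presence of these transcripts as a term in the fit, the difference from no BAFF was -0.71 ± 0.138 after control antibody (adjusted p = 0.0647) and -0.56 ± 0.138 after mBaffR-mFc (adjusted p = 0.222), and that of BRFc_60mer from BRFc_3mer was -0.52 ± 0.138 (adjusted p = 0.282). Their direction was the same and none of the 3 passed. That term rests on the 3 Ab_3mer libraries, the only group that holds both kinds. In each of the 4 comparisons with BAFF 60mer, the fall of Sdc1 passed whichever library was left out.

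Pou2af1 encodes OBF1, the B cell coactivator that serves antibody gene transcription and the germinal centre response. It had 426, 463 and 460.3 FPKM in Ab_60mer, against 342, 366 and 349 FPKM in Ab. In BRFc_60mer it had 446, 451 and 457 FPKM, against 336, 354 and 379 FPKM in BRFc. With BAFF 3mer it had 331, 342 and 361 FPKM in BRFc_3mer and 348, 342 and 369 FPKM in Ab_3mer. All 6 libraries with BAFF 60mer, at 426 to 463 FPKM, lay above the 12 others, at 331 to 379 FPKM. The rise over no BAFF was 0.35 ± 0.051 on the log2 scale in Ab_60mer (adjusted p = 0.000407) and 0.34 ± 0.051 in BRFc_60mer (adjusted p = 0.00088), or 27.6% and 26.8% of the mean without BAFF. Over BAFF 3mer it was 0.35 ± 0.051 in Ab_60mer (adjusted p = 0.000762) and 0.39 ± 0.051 in BRFc_60mer (adjusted p = 0.000268). Among carrying libraries the rise was 0.38 ± 0.056 (adjusted p = 0.00168). With connective tissue transcripts as a term the difference from no BAFF was 0.45 ± 0.090 after control antibody (adjusted p = 0.0685) and 0.44 ± 0.090 after mBaffR-mFc (adjusted p = 0.105), which did not pass, and that of BRFc_60mer from BRFc_3mer was 0.49 ± 0.090 (adjusted p = 0.0494), which did.

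**Figure D2:**
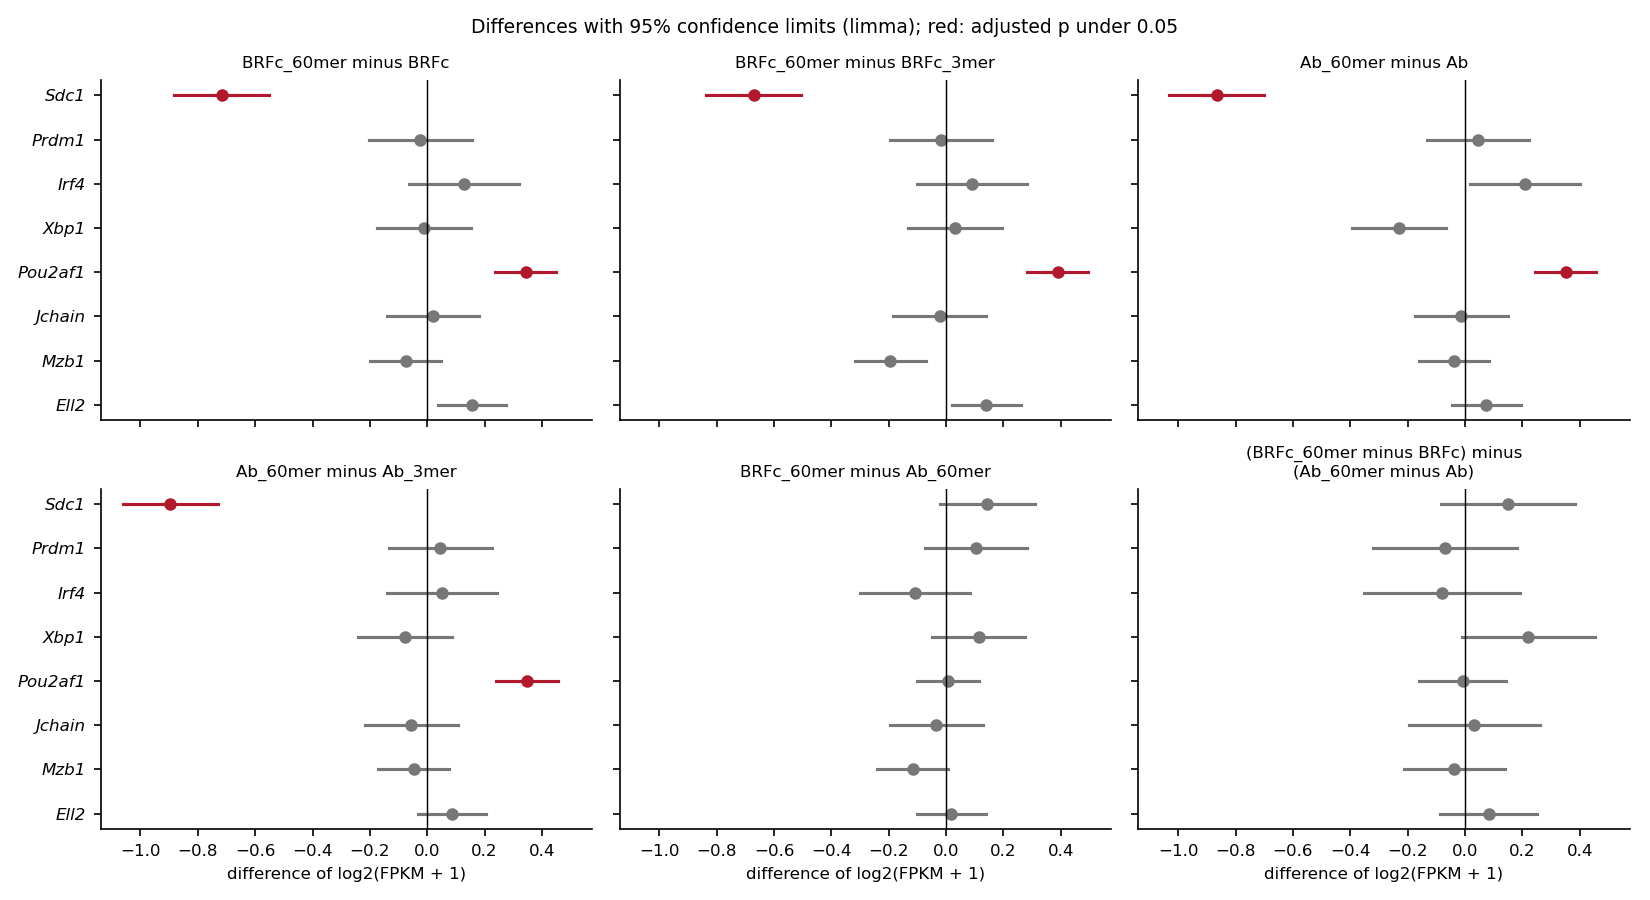
Differences of log2(FPKM + 1) with their 95% confidence limits for the 8 members, in the 4 comparisons of BAFF 60mer with no BAFF or BAFF 3mer, between pretreatments with BAFF 60mer, and as the interaction of BAFF 60mer with pretreatment. Sdc1 lies between -0.90 and -0.67 and Pou2af1 between 0.34 and 0.39 in the 4 comparisons, with red points for adjusted p under 0.05.

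Of the transcription factor genes, Prdm1, Irf4 and Xbp1 did not pass in any comparison. Irf4, on chromosome 13, encodes a factor whose level steers B cells toward the plasma cell state. It had 214, 210.0 and 186 FPKM in Ab_60mer, 205, 206 and 178 FPKM in Ab_3mer and 188, 169 and 169 FPKM in Ab. After mBaffR-mFc it had 206, 189.9 and 169 FPKM in BRFc_60mer, 197, 178 and 157 FPKM in BRFc_3mer and 187, 169 and 160.0 FPKM in BRFc. The order of the means was the same after both pretreatments, highest with BAFF 60mer and lowest without BAFF, and every neighbouring pair of groups overlapped. The log2 difference of Ab_60mer from Ab was 0.21 ± 0.091 (adjusted p = 0.131) and that of BRFc_60mer from BRFc was 0.13 ± 0.091 (adjusted p = 0.48). The first principal component of the residuals over all genes was also used as a term, chosen after seeing the data. With it the Ab_60mer difference stayed at 0.21, its standard error was 0.046 and it passed (adjusted p = 0.00381). The component comes from the residuals of the same fit, so it leaves each difference as it was and changes only its error. A pass with this term, here or for other genes below, is therefore no further support. Replicates are numbered by order of deposition, and scores of that component were above 0 in replicate 3 and below 0 in replicate 1 of all 6 groups. Against all 3 Ab_3mer libraries the Irf4 difference of Ab_60mer was 0.05 ± 0.091 (adjusted p = 0.8). Against the 2 carrying Ab_3mer libraries it was -0.02 ± 0.097 (adjusted p = 0.957).

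Xbp1, on chromosome 11, encodes the factor that expands the secretory apparatus. It had 40.7, 44.8 and 50.3 FPKM in Ab_60mer, 44.6, 45.02 and 53.8 FPKM in Ab_3mer and 54.2, 51.3 and 53.9 FPKM in Ab. Ab_60mer lay below Ab without overlap, at a log2 difference of -0.23 ± 0.077 that missed the threshold (adjusted p = 0.0556). That difference passed with a minimum mean of 5 FPKM (adjusted p = 0.0466), with library quality weights (adjusted p = 0.0423), with the residual component as a term (adjusted p = 0.0106) and without replicate 3 of Ab_60mer (adjusted p = 0.0171). It did not pass in the other alternatives. In Ab_3mer the 2 libraries that carry connective tissue transcripts had 44.6 and 45.02 FPKM, and the third, which is replicate 3, had 53.8 FPKM. Replicate 3 was also the highest in Ab_60mer, BRFc_60mer and BRFc_3mer, where carrying does not vary, but not in Ab or BRFc. Within Ab_3mer the transcripts and the replicate number cannot be told apart. Against all 3 Ab_3mer libraries the difference of Ab_60mer was -0.08 ± 0.077 (adjusted p = 0.62). Against the 2 carrying Ab_3mer libraries it was 0.01 ± 0.075 (adjusted p = 0.975). After mBaffR-mFc, Xbp1 had 45.4, 50.3 and 51.1 FPKM in BRFc_60mer and 50.8, 49.8 and 47.1 FPKM in BRFc, which overlapped, with a log2 difference of -0.01 ± 0.077 (adjusted p = 0.961). The FPKM of a gene do not separate the spliced from the unspliced form of its message, so the active form of XBP1 was not measured.

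Prdm1, on chromosome 10, which encodes the repressor BLIMP1, was the lowest of the 8 members, at 5.40 to 7.58 FPKM. It had 6.22, 6.74 and 5.77 FPKM in Ab_60mer, against 6.52, 5.40 and 6.14 FPKM in Ab, and 7.35, 6.85 and 6.17 FPKM in BRFc_60mer, against 6.45, 7.0005 and 7.27 FPKM in BRFc. The groups overlapped, and the log2 differences were 0.05 ± 0.085 in Ab_60mer (95% limits -0.13 to 0.22) and -0.02 ± 0.085 in BRFc_60mer (95% limits -0.20 to 0.16). The means of its 3 groups after mBaffR-mFc, 6.79 to 6.91 FPKM, stood above those of the 3 groups after control antibody, 6.01 to 6.24 FPKM. None of those pretreatment differences passed: they were 0.17 ± 0.085 for BRFc against Ab (adjusted p = 0.831), 0.17 ± 0.085 for BRFc_3mer against Ab_3mer (adjusted p = 0.998) and 0.10 ± 0.085 for BRFc_60mer against Ab_60mer (adjusted p = 0.993).

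Jchain, Mzb1 and Ell2, the genes of antibody assembly and secretion, also did not pass in any comparison. Jchain, on chromosome 5, encodes the chain that joins IgM and IgA into polymers, and lay at 51.9 to 67.1 FPKM with overlapping groups throughout. Its log2 difference was -0.01 ± 0.076 in Ab_60mer against Ab (95% limits -0.17 to 0.15) and 0.02 ± 0.076 in BRFc_60mer against BRFc (95% limits -0.14 to 0.18). Mzb1, on chromosome 18, encodes a chaperone partner of the endoplasmic reticulum that marks marginal zone B cells as well as plasma cells, and lay at 198 to 236 FPKM. It had 198, 199 and 202 FPKM in BRFc_60mer, against 214, 236 and 236 FPKM in BRFc_3mer. These libraries did not overlap, yet the difference of -0.19 ± 0.058 missed the threshold (adjusted p = 0.0666). It passed with quality weights (adjusted p = 0.0131), with the residual component as a term (adjusted p = 0.0439) and without replicate 1 of BRFc_3mer (adjusted p = 0.0354). After control antibody the same difference was -0.05 ± 0.058 (adjusted p = 0.692). Mzb1 is the member whose promoter window was left out.

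Ell2, on chromosome 13, encodes the elongation factor that favours secreted heavy chain message, and lay at 13.7 to 16.8 FPKM. It had 16.8, 16.1 and 14.98 FPKM in BRFc_60mer, 14.6, 14.2 and 14.2 FPKM in BRFc_3mer and 13.7, 13.8 and 15.2 FPKM in BRFc. BRFc_60mer stood above BRFc_3mer without overlap and overlapped BRFc in 1 library. The log2 differences, 0.14 ± 0.057 from BRFc_3mer (adjusted p = 0.183) and 0.16 ± 0.057 from BRFc (adjusted p = 0.135), did not pass, and that from BRFc passed with quality weights (adjusted p = 0.0208). In Ab_60mer it was 0.07 ± 0.057 above Ab (adjusted p = 0.409). Exon bases of Mzb1 overlap those of SPATA24 on the same strand, and those of Ell2 overlap the snoRNA Gm23127 on the same strand and the antisense gene 1700037F03Rik. How shared bases were counted, and whether strand was used, is not given in the sources used here, so both genes' values are uncertain to that extent.

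Among the groups without BAFF 60mer, no member passed the test. In Ab_3mer against Ab, BRFc_3mer against BRFc, BRFc against Ab and BRFc_3mer against Ab_3mer, 0 of 8 members passed limma, and 0% of all tested genes did. None of the 8 reached an unadjusted p under 0.05 in any of these 4, where 632, 388, 688 and 452 of all genes did, in the order given. Over the 8 members the 95% limits ran from -0.32, the lower limit of Xbp1, to 0.35, the upper limit of Irf4, in Ab_3mer against Ab, and from -0.21 for Sdc1 to 0.24 for Mzb1 in BRFc_3mer against BRFc. Sdc1 was at 0.03 ± 0.078 on the log2 scale in Ab_3mer against Ab (95% limits -0.14 to 0.19) and at -0.05 ± 0.078 in BRFc_3mer against BRFc (95% limits -0.21 to 0.12). The Sdc1 limits thus do not reach the size of its fall with BAFF 60mer.

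With BAFF 60mer the pretreatments were not shown to differ in any member. In BRFc_60mer against Ab_60mer 0 of 8 members passed, against 0.0258% of all genes, and the interaction of BAFF 60mer with pretreatment passed in 0 of 8, against 0.00859%. The interaction of the difference between BAFF 60mer and BAFF 3mer also passed in 0 of 8, against 0.0172%. Unadjusted, 540, 640 and 488 of all genes had p under 0.05 in these 3. The log2 difference of Sdc1 in BRFc_60mer from Ab_60mer was 0.14 ± 0.078 (adjusted p = 0.993), with 22.0 FPKM as its middle value against 18.8 FPKM. Its interaction was 0.15 ± 0.111 against no BAFF (95% limits -0.08 to 0.38) and 0.22 ± 0.111 against BAFF 3mer (95% limits -0.01 to 0.46). Pou2af1 had an interaction of -0.01 ± 0.072 against no BAFF (95% limits -0.16 to 0.14). For Xbp1 it was 0.22 ± 0.109 (95% limits -0.01 to 0.45; adjusted p = 0.919).

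Members were also counted by libraries that do not overlap, and the share of all genes stands beside each count. In Ab_60mer against Ab, 3 of 8 members had libraries that did not overlap, Sdc1, Pou2af1 and Xbp1, against 32.7% of all genes. In Ab_60mer against Ab_3mer 2 members did, against 23.9%, and in BRFc_60mer against BRFc 2 did, against 20.5%. In BRFc_60mer against BRFc_3mer 4 did, Sdc1, Pou2af1, Mzb1 and Ell2, against 24.2%. In the 2 comparisons of BAFF 3mer with no BAFF 0 did, against 11.5% after control antibody and 9.19% after mBaffR-mFc. Between pretreatments 1 did in each comparison: Xbp1 without BAFF, against 10.3% of all genes, Prdm1 with BAFF 3mer, against 10% (1169 of 11646 genes), and Mzb1 with BAFF 60mer, against 8.41%.

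Around the members, 6 lists covered genes that work with them, and list members are counted out of those tested. The counts stand beside 5.04% of all tested genes higher and 8.94% lower in Ab_60mer against Ab, and 1.46% higher and 3.37% lower in BRFc_60mer against BRFc. Of 12 B cell factors set against the plasma cell programme, 1 rose and 2 fell in Ab_60mer against Ab, and 3 rose and 2 fell in BRFc_60mer against BRFc. The list's median log2 differences were -0.02 and -0.08, with -0.02 over all genes in both. Spib, which encodes an ETS factor of B cells, rose to 241, 267 and 256 FPKM in Ab_60mer, against 201, 196 and 196 FPKM in Ab, by 0.36 ± 0.040 on the log2 scale (adjusted p = 3.83e-05). Its rise in BRFc_60mer against BRFc was 0.37 ± 0.040. Id3, which encodes an inhibitor of E proteins, fell to 65.0, 63.5 and 65.5 FPKM in Ab_60mer, against 83.3, 90.0 and 75.8 FPKM in Ab, by 0.35 ± 0.057, and by 0.39 ± 0.057 in BRFc_60mer. Neither gene's libraries overlapped, and both passed in all 4 comparisons with BAFF 60mer and among carrying libraries, at 0.35 ± 0.046 for Spib and -0.34 ± 0.065 for Id3.

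Bcl6, the germinal centre repressor that opposes Prdm1, had 37.6, 38.8 and 37.0 FPKM in BRFc_60mer, against 29.3, 28.6 and 27.6 FPKM in BRFc, a rise of 0.40 ± 0.050. After control antibody it had 31.5, 35.1 and 31.3 FPKM in Ab_60mer, against 28.3, 29.3 and 31.7 FPKM in Ab, a difference of 0.13 ± 0.050 that did not pass (adjusted p = 0.0907). The difference between these was 0.27 and did not pass the interaction test. Ciita, the activator of MHC class II genes, rose by 0.25 ± 0.057 in BRFc_60mer against BRFc, and Foxo1 fell by 0.24 ± 0.060 there. Spi1, which encodes PU.1, fell by 0.38 ± 0.093 in Ab_60mer against Ab, and among carrying libraries it was at -0.17 ± 0.099 (adjusted p = 0.476). Among carrying libraries Bcl6 (0.15 ± 0.058), Ciita (0.17 ± 0.059) and Foxo1 (-0.09 ± 0.067) did not pass. That comparison sets Ab_60mer against Ab_3mer, so it cannot check calls made after mBaffR-mFc. Pax5, Bach2 and Irf8, core factors of the B cell state, did not pass in these comparisons, with Pax5 at -0.21 ± 0.059 in BRFc_60mer against BRFc (adjusted p = 0.0505). With connective tissue transcripts as a term, 0 of the 16 genes of the 6 lists that passed in Ab_60mer against Ab did so. In BRFc_60mer against BRFc 0 of 10 did. In Ab_60mer against Ab_3mer 3 of 9 did, and in BRFc_60mer against BRFc_3mer 1 of 11. Over all tested genes the same term took the number of calls from 1628 to 16, 563 to 10, 560 to 246 and 601 to 15, in the order given. The losses are thus not particular to the listed genes.

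Of 16 tested genes on a list of other plasma cell genes, 2 rose and 2 fell in Ab_60mer against Ab, and 0 rose and 1 fell in BRFc_60mer against BRFc, with medians of -0.06 and -0.08 against -0.02 over all genes in both. Over all genes 5.04% rose and 8.94% fell in Ab_60mer against Ab, and 1.46% rose and 3.37% fell in BRFc_60mer against BRFc. Cd38, a surface enzyme found on B cells and plasma cells, fell in all 4 comparisons with BAFF 60mer, with 36.0, 40.6 and 34.7 FPKM in Ab_60mer against 43.4, 43.9 and 44.1 FPKM in Ab (-0.24 ± 0.061, adjusted p = 0.0177). Sec11c, a subunit of the signal peptidase, fell by 0.22 ± 0.053 in Ab_60mer against Ab. Zbtb20, which encodes a zinc finger factor of long-lived plasma cells, rose by 0.38 ± 0.110, and Tent5c, a poly(A) polymerase gene of plasma cells, by 0.24 ± 0.077. Cd38, Sec11c, Zbtb20 and Tent5c each lost the call in Ab_60mer against Ab when some single libraries were left out: Zbtb20 and Tent5c passed in 2 of 6 such fits, Cd38 in 3 and Sec11c in 4. None of the 4 passed among carrying libraries, where Cd38 was at -0.27 ± 0.070 (adjusted p = 0.0573), Sec11c at -0.07 ± 0.061, Zbtb20 at 0.16 ± 0.121 and Tent5c at 0.10 ± 0.086. Slamf7, a surface receptor of plasma cells and NK cells, was at 51.5 to 62.7 FPKM and did not pass.

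The protein folding side of the programme, read from 32 XBP1 targets and genes of the endoplasmic reticulum, had 2 members higher and 1 lower in Ab_60mer against Ab, and 2 higher and 0 lower in BRFc_60mer against BRFc. Over all genes 5.04% were higher and 8.94% lower in Ab_60mer against Ab, and 1.46% and 3.37% in BRFc_60mer against BRFc. The list's median log2 difference was 0.01 in Ab_60mer and 0.03 in BRFc_60mer, with -0.02 over all genes in both. Canx, the membrane chaperone calnexin, rose in all 4 comparisons with BAFF 60mer, by 0.18 ± 0.037 in Ab_60mer against Ab (adjusted p = 0.00477) and by 0.15 ± 0.037 in BRFc_60mer against BRFc (adjusted p = 0.0323). Herpud1, a stress-induced gene of the degradation machinery, rose by 0.17 ± 0.047 in both, and Syvn1, a ubiquitin ligase gene of the same machinery, fell by 0.15 ± 0.042 in Ab_60mer. Of these, Canx in Ab_60mer against Ab passed whichever library was left out, while Herpud1 and Syvn1 passed in 2 of 6 such fits there, and Canx and Herpud1 in 1 of 6 in BRFc_60mer against BRFc. The chaperone gene Hspa5 was at 0.13 ± 0.048 in Ab_60mer (adjusted p = 0.0714). Among carrying libraries none of Canx, Herpud1 and Syvn1 passed, with Canx at 0.12 ± 0.041 (adjusted p = 0.174).

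**Figure D3:**
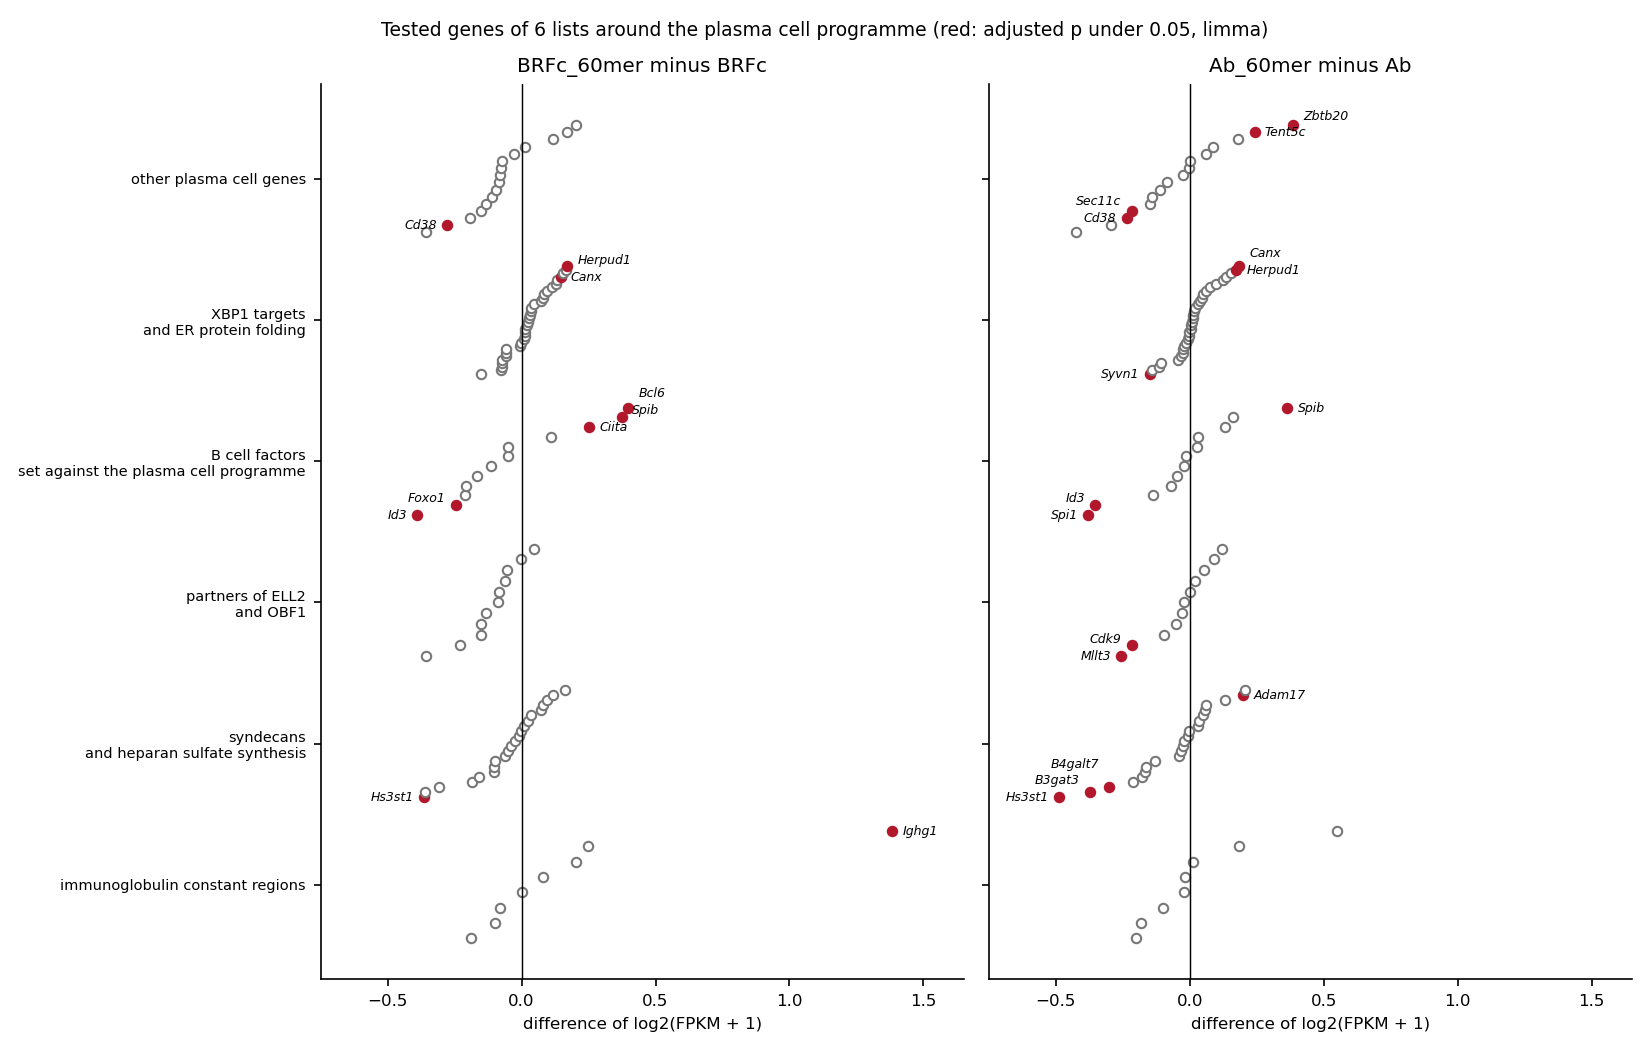
Differences of log2(FPKM + 1) for every tested gene of the 6 lists, in BRFc_60mer minus BRFc on the left and Ab_60mer minus Ab on the right, with red named points for adjusted p under 0.05. Most genes lie near 0 in both panels, Spib and Id3 are red in both, and Ighg1 at 1.38 lies far from the rest in the left panel.

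No other syndecan passed the test in the comparisons with BAFF 60mer. Sdc4, at 67.6 to 88.5 FPKM the most abundant syndecan here, had a log2 difference of 0.03 ± 0.071 in Ab_60mer against Ab (adjusted p = 0.794), and Sdc3, at 3.19 to 7.47 FPKM, had -0.04 ± 0.185 (adjusted p = 0.912). Sdc2 was at 0 to 0.0925 FPKM and was not tested. Among the 22 tested genes of syndecans and heparan sulfate synthesis, 1 was higher and 3 lower in Ab_60mer against Ab, and 0 higher and 1 lower in BRFc_60mer against BRFc, with medians of -0.02 and -0.03, where 5.04% of all genes were higher and 8.94% lower in Ab_60mer against Ab and 1.46% and 3.37% in BRFc_60mer against BRFc. Hs3st1, a heparan sulfate sulfotransferase gene, fell in both, with 16.2, 21.2 and 15.8 FPKM in Ab_60mer against 23.2, 26.1 and 25.9 FPKM in Ab (-0.49 ± 0.101, adjusted p = 0.00527). B4galt7, an enzyme gene of the linker that joins the sugar chain to the core protein, fell by 0.30 ± 0.066 in Ab_60mer against Ab and by 0.33 ± 0.074 among carrying libraries (adjusted p = 0.0245). Adam17, which encodes a protease known to shed syndecans, rose by 0.20 ± 0.041 in Ab_60mer against Ab. Among carrying libraries neither Hs3st1, at -0.42 ± 0.116 (adjusted p = 0.0785), nor Adam17, at 0.16 ± 0.048 (adjusted p = 0.12), passed. Of 11 tested partners of ELL2 and OBF1, Cdk9 fell by 0.22 ± 0.048 and Mllt3 by 0.26 ± 0.075 in Ab_60mer against Ab, and none passed in BRFc_60mer against BRFc, with medians of -0.02 and -0.09. Neither passed among carrying libraries, with Cdk9 at -0.14 ± 0.055 (adjusted p = 0.236) and Mllt3 at -0.27 ± 0.086 (adjusted p = 0.138). Pou2f2, the gene of OCT2, was at 0.05 ± 0.087 in Ab_60mer (adjusted p = 0.739).

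Immunoglobulin constant region genes, the message that the programme serves, did not pass in Ab_60mer against Ab, with 0 of 8 tested and a median of -0.02. Ighm and Igkc, the heavy chain of IgM and the kappa light chain, were at 2114 to 2440 FPKM and 4491 to 5275 FPKM over all libraries. Ighg1 passed after mBaffR-mFc, with 9.71, 8.997 and 7.85 FPKM in BRFc_60mer against 2.65, 3.17 and 2.505 FPKM in BRFc, a log2 difference of 1.38 ± 0.274 (adjusted p = 0.00689). After control antibody it had 4.87, 5.37 and 5.96 FPKM in Ab_60mer, 6.94, 6.77 and 2.08 FPKM in Ab_3mer and 4.06, 3.14 and 2.95 FPKM in Ab. Within Ab_3mer the 2 libraries that carry connective tissue transcripts had 6.94 and 6.77 FPKM of Ighg1, and the third, which is replicate 3, had 2.08 FPKM. What sets that library apart was not tested, and the connective tissue term rests on these same libraries. With those transcripts as a term the difference in BRFc_60mer was 0.03 (adjusted p = 0.999), and among carrying libraries it was -0.30 ± 0.186 in Ab_60mer (adjusted p = 0.499).

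Marker lists were also set side by side between the groups. The 5 plasma cell markers that are not members summed to 71.8 to 76.4 FPKM in Ab_60mer against 64.9 to 72.4 FPKM in Ab. After mBaffR-mFc they summed to 66.3 to 72.6 FPKM in BRFc_60mer against 62.2 to 66.6 FPKM in BRFc. Slamf7, also a gene of NK cells, made up 51.5 to 62.7 FPKM over all libraries. Within the sum, Tent5c rose in Ab_60mer, as given above, while Derl3 had 0.857, 1.24 and 1.16 FPKM against 1.27, 1.68 and 1.72 FPKM in Ab. All 8 plasma cell markers, Sdc1 included, summed to 156 to 163 FPKM in Ab_60mer against 166 to 175 FPKM in Ab. In BRFc_60mer they summed to 156 to 160 FPKM, against 155 to 173 FPKM in BRFc. Ms4a1, Cd79a, Cd79b, Cd22 and Blnk, markers of B cells, summed to 1949.8 to 1997 FPKM in Ab_60mer against 2066 to 2195 FPKM in Ab. After mBaffR-mFc they summed to 1906 to 2007 FPKM in BRFc_60mer against 2052 to 2151 FPKM in BRFc. This sum leaves out 1 gene of the list and was added after seeing the data, so its gap between groups is not read as a result. The 6 markers of macrophages, monocytes and neutrophils summed to 144 to 168 FPKM in Ab_60mer against 153 to 169.9 FPKM in Ab, and to 157 to 162 FPKM in BRFc_60mer against 151 to 173 FPKM in BRFc. The summed level of 6 NK cell markers was 114 to 115 FPKM in Ab_60mer and 134 to 144 FPKM in Ab, and 123 to 125 FPKM in BRFc_60mer against 126 to 142 FPKM in BRFc. The 5 markers of conventional dendritic cells summed to 18.1 to 20.8 FPKM in Ab_60mer against 13.05 to 14.8 FPKM in Ab, and to 17.3 to 22.1 FPKM in BRFc_60mer against 12.4 to 14.9 FPKM in BRFc, of which Zbtb46 made up 8.68 to 18.05 FPKM over all libraries, while Xcr1 and Clec9a stayed at or below 0.211 FPKM. The 6 epithelial markers, relevant because epithelia express Sdc1, summed to 11.7 to 12.9 FPKM in Ab_60mer and 11.3 to 12.5 FPKM in Ab. Nearly all of that sum was Epcam, at 10.8 to 12.8 FPKM over all libraries, while Krt8, Krt18, Krt5, Krt14 and Cdh1 each reached at most 0.35 FPKM. The part of these cells in the fall of Sdc1 was not tested.

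Genes whose pattern over the 18 libraries was most like that of Sdc1 were found among 9688 genes that averaged 2 FPKM or more, by the root mean square difference of centred log2 values, which is a description with no test. The nearest was S1pr1, a receptor that guides lymphocytes out of lymphoid organs, at a distance of 0.153, where the pattern of Sdc1 itself had a root mean square of 0.383. It had 79.0 ± 2.41 FPKM in Ab_60mer against 118 ± 3.73 FPKM in Ab, and 82.7 ± 0.961 FPKM in BRFc_60mer against 118 ± 2.42 FPKM in BRFc (SD, n = 3 each). Serpinb1a, Hepacam2, S1pr4, B3gnt8 and Dok3 followed, at 0.155 to 0.164. The most opposed was Kynu, the kynureninase gene, at 0.111, with 46.8 ± 0.064 FPKM in Ab_60mer against 23.9 ± 0.781 FPKM in Ab, and then Lyst, Zbtb46, Nid1, Ticam2 and St8sia6. Kynu mirrored Sdc1 more closely than any of the 9688 genes matched it.

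The pattern of Pou2af1, with a root mean square of 0.176, was matched most closely by Rapgef1 at 0.045, followed by Birc3, Tmem173, Rara, Spib and Swap70 at 0.053 to 0.060. Rapgef1, a guanine nucleotide exchange factor gene, had 113 ± 2.88 FPKM in Ab_60mer against 83.6 ± 1.62 FPKM in Ab. Birc3, an inhibitor of apoptosis in the NF-kB pathway, had 418 ± 1.248 FPKM in Ab_60mer against 329 ± 1.54 FPKM in Ab. The most opposed was Snx5, a sorting nexin gene, at 0.052, with 633 ± 31.1 FPKM in Ab_60mer against 798 ± 20.0 FPKM in Ab, followed by Fcrla, Slc26a11, Txndc16, Plac8 and Rgs2. Spib, the B cell factor described above, thus appears both on its list and among the closest matches of Pou2af1.

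**Figure D4:**
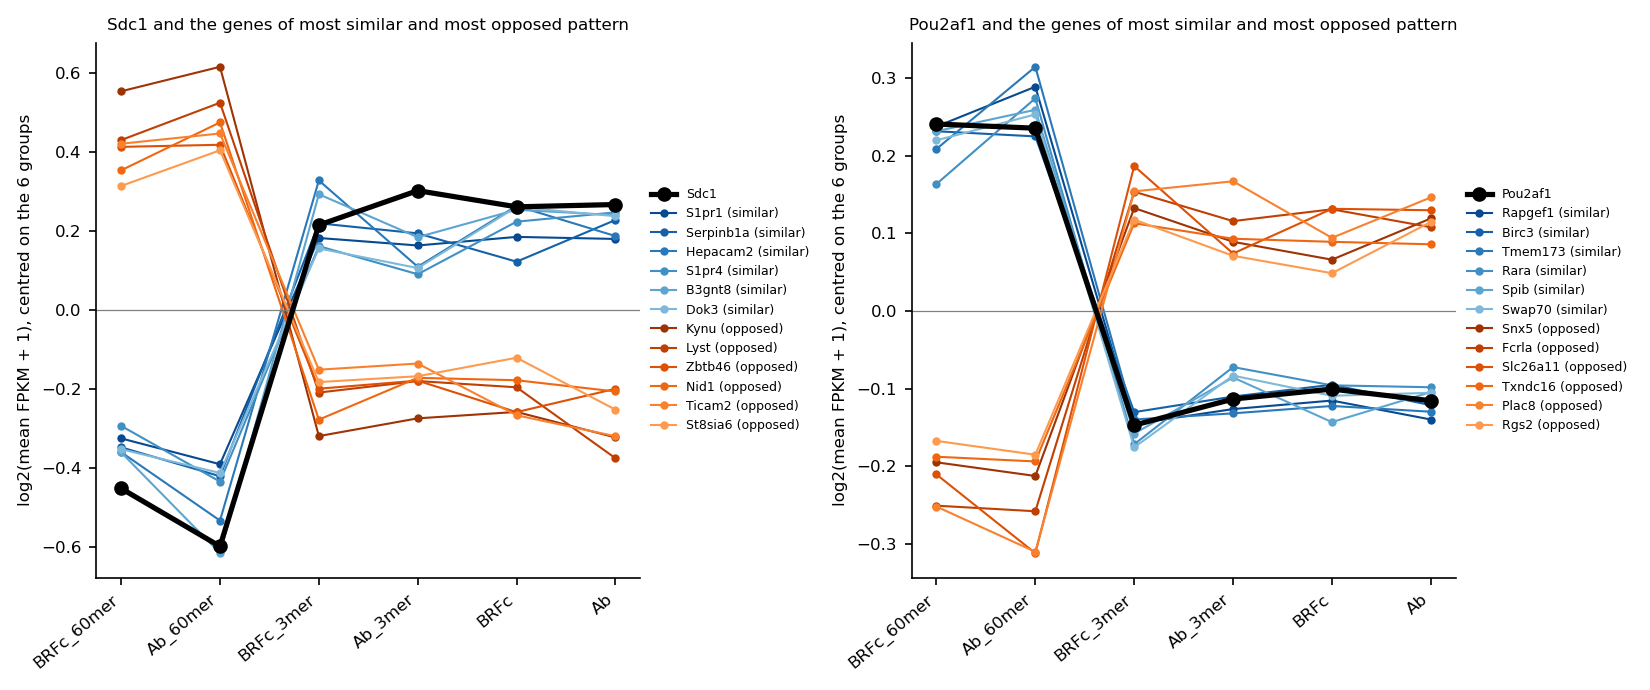
Group means on a log2 scale, centred on the 6 groups, for Sdc1 (left, black) and Pou2af1 (right, black) with the 6 genes most similar (blue) and most opposed (orange) to each. The genes were picked by their pattern over these same libraries. By that choice BRFc_60mer and Ab_60mer stand apart from the other 4 groups in every line, and the opposed lines mirror the similar ones.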

How the data were processed

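RNA from 18 libraries of splenic pan B cells was measured in 6 groups of 3. Per the labels' protocols, the authors had total RNA sequenced by a company, which determined the deposited values in FPKM. The aligner, counting tool, annotation, genome build and any scaling between libraries are not given in the sources used here. Symbols and positions came from GENCODE M21 (GRCm38), which matched 34490 of 35275 IDs, and 0 columns were left unused.

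Library totals were recovered from FPKM steps of single-transcript genes; 88.3 to 89.4% of their values below 500 fragments came out whole to within 0.1, and 1 fragment on 1000 bases was worth 0.0393 to 0.0818 FPKM. Since these totals rest on gene models that may differ from those of the authors, no count test was run. Values were tested as log2(FPKM + 1), which understates changes of low genes, with limma 3.58.1 in R 4.3.3, for genes averaging 1 FPKM or more. This was 1 moderated fit with a variance trend over all 6 groups, with 11 comparisons, Benjamini-Hochberg adjustment over all tested genes and a threshold of 0.05. The fit was tested on simulated data. Python 3.11.15 with matplotlib 3.10.9 made the figures.

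The members, lists, tests and alternatives were chosen with earlier results of these data known. Named beside the members were, from each list, up to 4 passing genes of smallest p in a comparison and the ends of the range, some left out for length, and for Sdc1 and Pou2af1 the 6 most similar and 6 most opposed genes averaging 2 FPKM or more. Sdc2, Sdc3, Sdc4, Slamf7, Hspa5, Pou2f2, Pax5, Bach2, Irf8, Ighm and Igkc were added after their values were seen. Alternatives were a pseudocount of 0.1, a minimum mean of 5 FPKM or none at all, rescaling by median of ratios, a fit of only the groups compared, quality weights, connective tissue transcripts as a term, each library left out, and, added after seeing the data, the first residual component (23.1% of residual variation) as a term. Replicate numbers follow the order of deposition. 1 gene of the B cell marker list is not reported here, and the sums over the other 5 and over the plasma cell markers that are not members were added after seeing the data.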

Additional observations from a re-analysis of the deposited data

How the results depend on the processing

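Over 1328 values of the 8 members under the alternatives, 1314 kept their side of the threshold, 9 gained a call, 5 lost it and 0 reversed. The 5 losses were those of Sdc1 and Pou2af1 with connective tissue transcripts as a term, and the gains were Xbp1, Irf4, Mzb1 and Ell2, as given above. With that term 0 members passed in Ab_60mer against Ab, 0 in BRFc_60mer against BRFc and 1 in BRFc_60mer against BRFc_3mer. With the first residual component, which leaves each difference as it was and changes only its error, 4 members passed in Ab_60mer against Ab. Leaving out single libraries, 2 to 3 members passed in Ab_60mer against Ab and in BRFc_60mer against BRFc_3mer, and 2 in both other comparisons with BAFF 60mer.

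Over all genes the counts moved more. Against 1628, 560, 563 and 601 genes in Ab_60mer against Ab, Ab_60mer against Ab_3mer, BRFc_60mer against BRFc and BRFc_60mer against BRFc_3mer, a fit of only the groups compared gave 1053, 252, 139 and 287. With the connective tissue term there were 16, 246, 10 and 15, and with the residual component 2640, 1304, 1187 and 1061. Quality weights gave 1386 and 1318 in both comparisons after mBaffR-mFc. Leaving out single libraries gave 756 to 1668, 246 to 471, 242 to 731 and 233 to 543. The lowest came without Ab_60mer replicate 1, Ab_3mer replicate 3, BRFc replicate 3 and BRFc_3mer replicate 3. In BRFc_60mer against Ab_60mer, with 3 genes, the counts were 0 with only the groups compared, 8 with weights, 10 with the residual component and 1 to 6 without single libraries. The interaction with BAFF 60mer, with 1 gene, gave 0 without a filter, after rescaling, with only the groups compared and without any single library, and 2 with the connective tissue term. The interaction against BAFF 3mer, with 2, gave 1 with a minimum mean of 5 FPKM and with the connective tissue term, 0 with only the groups compared and 1 to 4 without single libraries. Where 0 genes passed, no filter gave 1 in Ab_3mer against Ab and in BRFc_3mer against Ab_3mer, as did the connective tissue term, only the groups compared gave 2 in BRFc_3mer against BRFc and in BRFc_3mer against Ab_3mer, and leaving out single libraries gave 0 to 1 in each. Rescaling split the calls into 763 higher and 880 lower in Ab_60mer against Ab, where 587 were higher and 1041 lower, and into 226 and 289 in BRFc_60mer against BRFc, where 170 were higher and 393 lower. The cause of these moves was not tested.

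Of the 16 list genes that passed in Ab_60mer against Ab, 7 did so whichever library was left out (Canx, Id3, Spib, Cdk9, Adam17, B4galt7 and Hs3st1), as did 2 of 9 in Ab_60mer against Ab_3mer (Id3 and Spib), 4 of 10 in BRFc_60mer against BRFc (Bcl6, Id3, Spib and Ighg1) and 6 of 11 in BRFc_60mer against BRFc_3mer (those 4, Canx and Ciita). No paired analysis was possible because the labels give no replicate numbers, and the numbers used here follow the order of deposition, which was not taken to pair libraries. Scores of the residual component were above 0 for replicate 3 in 6 of 6 groups, for replicate 2 in 2 of 6 and for replicate 1 in 0 of 6. Within Ab_3mer the library without connective tissue transcripts is replicate 3, and that term is estimated from 1 group that holds both kinds of library.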
